A study of Mus musculus with 4 samples.

Results

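Interleukins are secreted signalling proteins of the immune system, and the genes described here encode them, the receptor chains that read them and the antagonists that block them. Earlier results of these data were known when the genes and the lists used below were chosen. The genes were chosen by name, as those whose symbol begins with Il and a digit. They came from the rows of a liver gene expression array that name exactly 1 gene. There were 78 of them among 22180 genes tested, namely 37 ligands, 34 receptor chains, 6 antagonists or decoy receptors and the antisense transcript Il1bos. Livers came from wild-type male mice of the inbred strain C57BL/6J, which began a normal diet (ND) or the MCD diet, which lacks methionine and choline, at 6 weeks of age and stayed on it for 20 weeks. Strain, sex and genotype were thus shared, and diet was the only labelled difference. The MCD diet is a model of fatty liver with inflammation in which mice lose weight, unlike the obesity that goes with most human fatty liver. Each diet had 2 samples, each on its own array, and where nothing says that arrays came from separate animals the p-values measure only the spread between these samples.

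The 4 arrays had median log2 signals of 2.57 to 2.65 over all rows. Across genes, the SD of the difference between arrays of a diet was 0.267 (ND) and 0.274 (MCD), against 0.528 to 0.598 between diets. Over the interleukin genes alone these SDs were 0.296 and 0.234 within a diet. The tissue label was checked on 11 measured hepatocyte markers, none of which lay below a log2 signal of 7.34 on any array. Of these markers 0 rose and 1 fell (Apoa1, by 0.50). Their summed linear signal was 25010 and 24270 on the ND arrays and 21330 and 20410 on the MCD arrays.

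Most interleukins act between neighbouring cells at low abundance, and many are made only after a cell has sensed injury or microbes. IL-1β and IL-18 are made as precursors that the protease caspase-1 cuts inside inflammasomes. Receptors are built from a chain that binds 1 ligand and a partner chain that several ligands share, such as the IL-1 receptor accessory protein, gp130 or the IL-10 receptor β chain. In liver, Kupffer cells are a main source of these cytokines, while hepatocytes carry receptors for IL-1, IL-6 and IL-22 and answer with acute phase proteins.

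The promoters of 5 of the genes whose signal differed between the diets are shown, since they are the regulatory sequence next to the transcripts that the results turn on. Each runs from 250 bases before to 50 bases after the transcription start site in RefSeq, build GRCm38.p6, and is written 5′ to 3′ on the gene's strand. They lie at chr15:9529827-9530126 (minus strand) for Il7r, chr16:26581455-26581754 (plus strand) for Il1rap, chr9:50554450-50554749 (plus strand) for Il18, chr2:129371090-129371389 (minus strand) for Il1b and chr7:102018183-102018482 (minus strand) for Il18bp. Capitals mark the letters of a STAT motif, which was found in the Il7r promoter.
Il7r: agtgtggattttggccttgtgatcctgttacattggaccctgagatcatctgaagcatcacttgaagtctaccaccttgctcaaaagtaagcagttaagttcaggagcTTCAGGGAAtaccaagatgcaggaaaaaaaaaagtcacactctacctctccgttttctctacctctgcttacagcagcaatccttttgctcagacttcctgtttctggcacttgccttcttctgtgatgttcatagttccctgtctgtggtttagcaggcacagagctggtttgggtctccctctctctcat
Il1rap: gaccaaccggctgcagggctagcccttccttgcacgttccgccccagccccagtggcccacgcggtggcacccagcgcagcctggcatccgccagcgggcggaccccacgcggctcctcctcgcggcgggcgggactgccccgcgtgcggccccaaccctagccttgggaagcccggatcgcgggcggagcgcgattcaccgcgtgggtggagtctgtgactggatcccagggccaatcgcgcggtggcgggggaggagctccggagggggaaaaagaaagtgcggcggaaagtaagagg
Il18: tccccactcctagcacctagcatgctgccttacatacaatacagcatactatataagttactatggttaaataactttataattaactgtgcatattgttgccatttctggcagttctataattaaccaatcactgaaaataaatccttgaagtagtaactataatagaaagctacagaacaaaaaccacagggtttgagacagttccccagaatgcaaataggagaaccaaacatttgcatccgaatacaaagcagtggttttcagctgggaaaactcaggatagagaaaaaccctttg
Il1b: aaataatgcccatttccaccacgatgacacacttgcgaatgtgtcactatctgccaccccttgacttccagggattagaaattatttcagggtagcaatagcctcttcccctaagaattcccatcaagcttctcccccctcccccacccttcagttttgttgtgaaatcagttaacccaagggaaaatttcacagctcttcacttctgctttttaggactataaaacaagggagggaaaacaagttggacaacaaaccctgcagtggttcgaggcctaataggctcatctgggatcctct
Il18bp: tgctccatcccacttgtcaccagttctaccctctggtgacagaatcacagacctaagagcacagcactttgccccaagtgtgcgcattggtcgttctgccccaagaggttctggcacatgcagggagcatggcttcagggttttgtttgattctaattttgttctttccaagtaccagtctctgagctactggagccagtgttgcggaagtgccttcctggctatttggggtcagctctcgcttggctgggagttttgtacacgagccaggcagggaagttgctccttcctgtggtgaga

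Both strands were searched for a STAT motif (TTCNNNGAA), a form of the NF-κB motif (GGGNNTTCC) and an AP-1 motif (TGANTCA), where N is any base. Only this form of the NF-κB motif was searched. Longer sites such as gggattttcc in the Il6 promoter do not match it, so its counts are not those of all NF-κB sites. Of the 6 promoters in the table that belong to called genes, those above and that of Il17rc, 1 held the STAT motif, 0 the NF-κB motif and 0 the AP-1 motif. Its first base in the Il7r promoter stands at -142 from the start site. Among all 32841 promoters of 300 bases the shares with a match were 8.3%, 5.82% and 7.81%. Over the 74 promoters of 61 interleukin genes they were 14.9%, 6.76% and 18.9%. A match or its absence describes the letters in this window and no more. The promoters of the 3 genes that fell were of unlike composition. That of Il1rap held 72.0% G and C with 33 CpG dinucleotides, that of Il1b 45.7% with 3 and that of Il18 36.7% with 1, against medians of 52.7% and 7 over all promoters.

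Of the 78 interleukin genes, 4 rose and 3 fell in MCD diet livers at a limma adjusted p under 0.05, the threshold for calling a change throughout. Il7r, Il10rb, Il18bp and Il17rc were the genes that rose, and Il1rap, Il18 and Il1b the genes that fell. The 7 calls are 8.97% of the set, beside 9.98% of all genes tested (6.37% called higher and 3.62% lower), so the share called was near the background. By role, 0 ligands rose and 2 of 37 fell, 3 of 34 receptor chains rose and 1 fell, and 1 of 6 antagonists rose. With single arrays left out, 7 and 6 genes were called without the first or second ND array and 3 and 4 without the first or second MCD array. Over all genes, too, the calls in each of these fits were fewer than with all arrays kept. The median log2 difference, MCD minus ND, was -0.09 for ligands, 0.057 for receptor chains and 0.13 for antagonists, beside -0.033 for all genes.

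**Figure D1:**
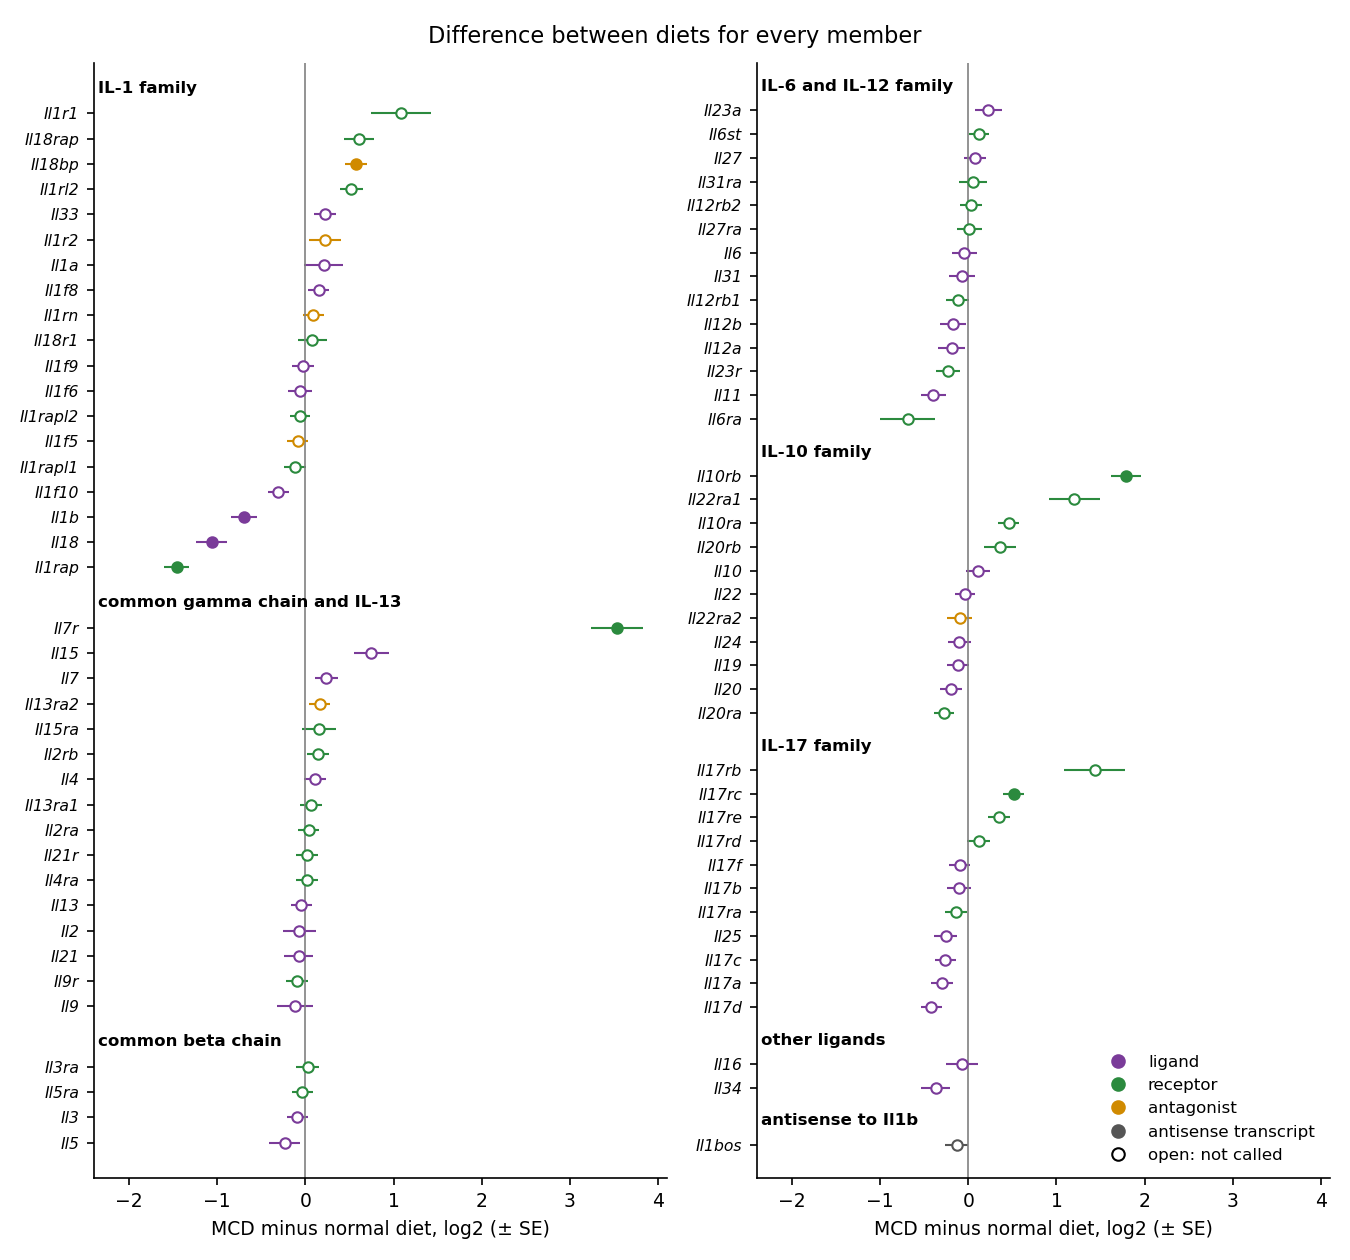
Log2 difference between MCD diet and normal diet livers (x axis, bars are the standard error, 2 arrays per diet) for each of the 78 interleukin genes, grouped by cytokine family and coloured by role, with filled points for an adjusted p under 0.05. The filled points are Il7r, Il10rb, Il18bp and Il17rc on the right of 0 and Il1b, Il18 and Il1rap on the left.

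Calls were more frequent among brighter genes. Of the interleukin genes 52 lay below the median mean signal of all genes (2.999), among them 30 of the 37 ligands but only 17 of the 34 receptor chains. Below that median 1 of the 52 was called, against 1.84% of all such genes. At or above it 6 of 26 were called (23.1%), against 18.1% of all such genes. The mean takes in both diets, so a difference itself can move a gene across the median. Il7r counts as bright with an ND mean of 2.16 (3.93 over all arrays). Il1b counts as dim with an ND mean of 3.22 (2.87 over all arrays). Differences between low signals can be understated, and no background or detection value was used here. Without regard to a test, the MCD arrays lay wholly above the ND arrays for 22 interleukin genes and wholly below for 25. Of all genes 54.2% did so in either direction, 25% above and 29.2% below. For 31 the arrays of the diets overlapped.

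**Figure D2:**
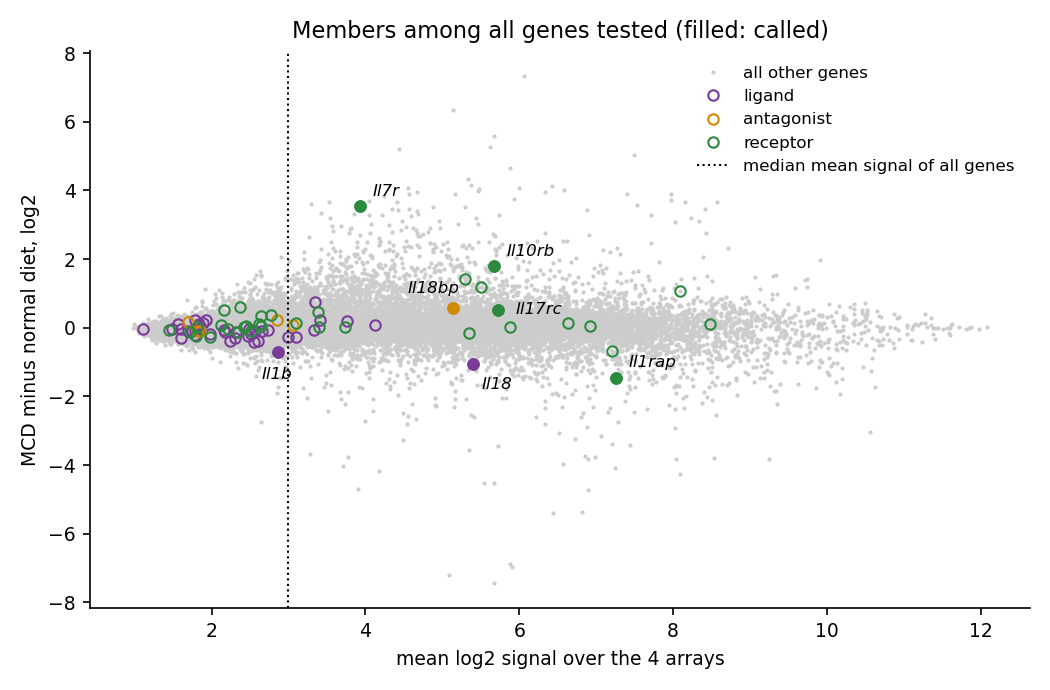
Log2 difference between the diets (y axis) against the mean log2 signal over the 4 arrays (x axis), with grey points for all other genes, circles for interleukin ligands, receptor chains and antagonists, and the median signal of all genes as a dotted line. Most ligands crowd to the left of the line near 0, while 6 of the 7 filled, called genes stand to its right.

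The largest change was in the IL-7 receptor. Il7r encodes the α chain that binds IL-7, a survival factor of lymphocytes, and that also serves the cytokine TSLP. Its log2 signal was 2.09 and 2.23 on the ND arrays and 6.17 and 5.23 on the MCD arrays. The groups lay far apart, with a gap of 0.94 between the MCD arrays. Il7r rose by 3.54 ± 0.30 (11.6-fold; limma adjusted p = 0.00200, 2 arrays in each group). Here and below, ± gives the SE on the log2 scale. By size the rise had rank 32 among all 22180 genes. The ND signal was dim, below the median of all genes, and no detection value was used, so the fold may be understated and its size and rank depend on that dim signal. With each array left out in turn the rise was 3.07 to 4.01 and stayed called in 4 of 4 fits.

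The cells best known for IL-7 receptor are T cells and innate lymphoid cells, which were followed through lists of 12 markers each. Of 10 measured T cell markers 0 rose and 0 fell, with a median difference of 0.12. Their summed linear signal was 67.1 and 66.0 on the ND arrays and 67.2 and 75.8 on the MCD arrays. Of the 10 markers 7 lay below the median signal, where 1.84% of all genes were called. Differences were positive for 6 T cell markers and negative for 4. Cd3e gave log2 signals of 2.45 and 2.47 (ND) and 2.87 and 3.34 (MCD), and Cd3g 3.11 and 2.64 against 3.46 and 3.49. Cd3d gave 2.07 and 1.93 against 1.71 and 1.77. Of 11 markers of NK and innate lymphoid cells 0 rose and 0 fell, and their summed signal was 90.5 and 91.7 (ND) and 89.5 and 81.3 (MCD). The brightest, Rora, weighs most in that sum (5.41 and 5.40 against 5.21 and 5.03). Of the 11 markers 10 lay below the median signal. The list of lipid-associated macrophage markers, like the others, was chosen with earlier results of these data known. Its markers rose in 11 of 11 measured, beside 6.37% of all genes called higher. All 11 lay at or above the median signal in the mean over the 4 arrays. Some did so only through the MCD arrays, such as Trem2 (2.94 and 2.72 on the ND arrays) and Gpnmb (2.29 and 2.51). The summed signal of the 11 went from 186 and 169 to 3062 and 2283. The summed signals of Kupffer cell markers (671 and 652 against 828 and 712) and neutrophil markers (56.3 and 59.4 against 103 and 68.5) were higher on the MCD arrays too. Of the 12 Kupffer cell markers, though, 1 rose and 4 fell. The brightest, Slc40a1, weighs most in their sum (7.48 and 7.56 against 7.83 and 8.45). Of 12 neutrophil markers 1 rose, and 11 lay below the median signal. Ngp, a neutrophil marker, stood at 4.47 and 2.22 on the MCD arrays. The part of these cells in the rise of Il7r was not tested, and in whole tissue more cells of a type and more RNA per cell cannot be told apart.

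The ligands and partner chains around it gave smaller differences. Il7 itself stood at 1.71 and 1.63 (ND) and 1.79 and 2.02 (MCD), a difference of 0.24 ± 0.14 (limma adjusted p = 0.357). Il15, a cytokine that sustains NK and memory T cells, measured 3.24 and 2.70 on the ND arrays and 3.79 and 3.64 on the MCD arrays. The groups did not overlap, and the difference of 0.75 ± 0.20 missed the threshold (limma adjusted p = 0.0737). Without the first ND array it was 1.02 (adjusted p = 0.0321) and without the second 0.47 (adjusted p = 0.225). Il15ra, the chain that presents IL-15 to other cells, differed by 0.15 ± 0.19 with overlapping arrays. Tslp, the other ligand of the IL-7 receptor, differed by 0.16 ± 0.12 (limma adjusted p = 0.499).

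Receptors of the type 2 cytokines IL-4 and IL-13 gave no call, with close values on all arrays. Il4ra stood at 5.94, 5.81, 5.90 and 5.89 on the 2 ND and then the 2 MCD arrays, a difference of 0.016 ± 0.12 with a 95% interval of -0.28 to 0.31. Its partner Il13ra1 stood at 6.96, 6.83, 6.93 and 6.98 in the same order (0.063 ± 0.12, interval -0.23 to 0.36). The decoy receptor Il13ra2, which takes up IL-13 without signalling, measured 1.65 and 1.57 against 1.76 and 1.79 (0.16 ± 0.12). Among the ligands and receptors of this family that remain, Il2, Il4, Il9, Il13, Il21, Il2ra, Il2rb, Il9r and Il21r, the differences ran from -0.12 to 0.14 and none was called. Of 11 macrophage genes induced by IL-4 and IL-13, 0 rose and 0 fell (median -0.0012), including Arg1 (-0.48 ± 0.14, limma adjusted p = 0.0854) and the mannose receptor Mrc1 (-0.26 ± 0.13). Of the 11, 7 lay below the median signal.

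The IL-1 family held 4 of the 7 called genes, 3 of them lower in MCD diet livers. That is 21.1% of its 19 genes, beside 9.98% of all genes tested. Of the 19, 8 lay at or above the median signal, where 18.1% of all genes were called. IL-1 and IL-18 drive inflammation through receptors with an intracellular TIR domain, and IL-33 is an alarm signal of injured tissue. Of its 8 ligands 2 fell and 0 rose, of its 7 receptor chains 1 fell and 0 rose, and of its 4 antagonists 1 rose. Il1rap encodes the accessory protein that IL-1, IL-33 and IL-36 receptors share. Its signal was 7.96 and 8.01 on the ND arrays and 6.39 and 6.66 on the MCD arrays, far apart and tight within each diet. Il1rap fell by 1.46 ± 0.14 (2.75-fold lower; limma adjusted p = 0.00307) and stayed called with each array left out in turn, at differences of -1.60 to -1.32.

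Il1rap was the only interleukin gene with more than 1 row on the array. A second row measured 6.88 and 7.06 on the ND arrays and 5.16 and 5.48 on the MCD arrays, and fell by 1.65 ± 0.16 in a fit over all rows. The last stood near the bottom of the scale, at 1.63 and 1.57 against 1.69 and 1.72, and differed by 0.11 ± 0.12. The 2 brighter rows thus moved alike, and which transcripts each row reads was not analysed here.

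**Figure D3:**
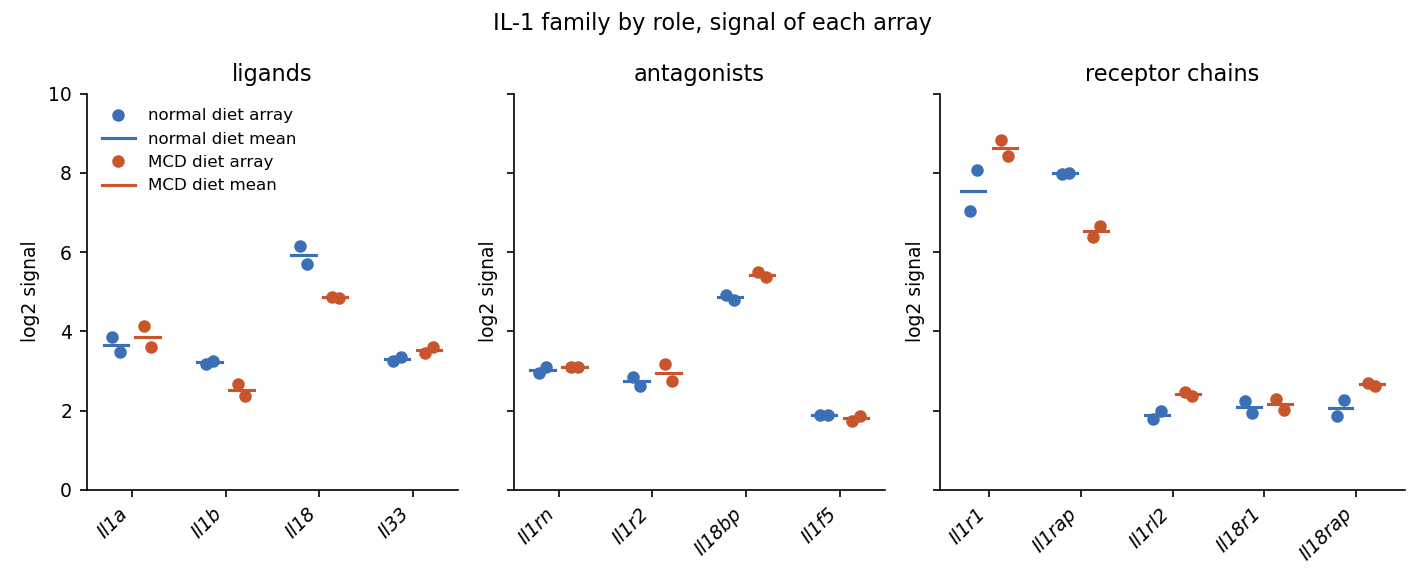
Log2 signal (y axis) of each array for the better known IL-1 family ligands, antagonists and receptor chains, with blue points for the 2 normal diet arrays, orange points for the 2 MCD diet arrays and bars for their means. Il1b, Il18 and Il1rap sit lower on the MCD diet, Il18bp sits higher, and the ND arrays of Il1r1 lie 1.05 apart.

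Il18 and its natural inhibitor moved in opposite directions. Il18, which activates NK and T cells and is made by Kupffer cells and epithelia, measured 6.15 and 5.71 on the ND arrays and 4.87 and 4.85 on the MCD arrays. It fell by 1.07 ± 0.17 (2.09-fold lower; limma adjusted p = 0.0159). Without the first or the second MCD array the difference was -1.08 and -1.05, and the call was lost (adjusted p = 0.0738 and 0.0652). Il18bp, the secreted protein that captures IL-18, measured 4.93 and 4.79 against 5.50 and 5.36 and rose by 0.57 ± 0.13 (1.49-fold; limma adjusted p = 0.0456). That call was lost under quantile normalization (0.45, adjusted p = 0.0655), with an intensity trend in the test (adjusted p = 0.0648) and with any 1 array left out (adjusted p = 0.0920 to 0.198). Of the receptor chains, Il18r1 overlapped between the diets (0.078 ± 0.16), while Il18rap measured 1.85 and 2.27 against 2.71 and 2.63 (0.60 ± 0.17, limma adjusted p = 0.0840, and 0.39 to 0.81 with single arrays left out).

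Il1b, the main secreted IL-1, was low in these livers and lower on the MCD diet. Its signal was 3.18 and 3.25 on the ND arrays and 2.67 and 2.37 on the MCD arrays. Il1b fell by 0.70 ± 0.15 (1.62-fold lower; limma adjusted p = 0.0362), the only call among interleukin genes below the median signal. With any 1 array left out the call was lost, at differences of -0.84 to -0.55 and adjusted p of 0.0528 to 0.150. The antisense transcript Il1bos, which has a row of its own, differed by -0.13 ± 0.13. Il1a, which is active without cleavage, overlapped between the diets at 3.85 and 3.47 against 4.14 and 3.60 (0.21 ± 0.22; -0.064 without the first MCD array).

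Kupffer cell markers went both ways. Of 12 measured, 4 fell (Clec4f, Timd4, Cd163 and Fcna) and 1 rose (C1qa), and all 12 had mean signals above the median of all genes. Their log2 differences were positive for 6 and negative for 6 (median -0.20), and their summed signal was higher on the MCD arrays, as given above. The part of Kupffer cells in the lower Il18 and Il1b signals was not tested.

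The remaining IL-1 receptors and antagonists gave no call. Il1r1, the signalling receptor of IL-1, measured 7.03 and 8.08 on the ND arrays and 8.83 and 8.43 on the MCD arrays. The MCD arrays were the higher ones, but the ND arrays lay 1.05 apart, and the difference of 1.08 ± 0.34 was not called (limma adjusted p = 0.116; 0.0202 without the second ND array, where it was 1.61, and 0.56 as a difference without the first). Il1r2, a decoy that binds IL-1 without signalling, differed by 0.22 ± 0.18. Il1rn, the secreted IL-1 receptor antagonist, stood at 2.95, 3.09, 3.11 and 3.11 on the 2 ND and then the 2 MCD arrays (0.091 ± 0.12, 95% interval -0.21 to 0.39).

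Other members of the family were mostly dim. Il33 measured 3.26 and 3.34 against 3.44 and 3.61 (0.22 ± 0.13). Il1rl2, the receptor of IL-36, measured 1.79 and 1.995 against 2.47 and 2.36 and missed the threshold (0.52 ± 0.13, limma adjusted p = 0.0647; called under quantile normalization at adjusted p = 0.0444). The IL-36 and IL-38 ligands and their antagonist, listed by the older symbols Il1f5, Il1f6, Il1f8, Il1f9 and Il1f10, differed by -0.31 to 0.15, and the receptor-like Il1rapl1 and Il1rapl2 by -0.12 and -0.061. The IL-33 receptor Il1rl1 was not analysed here.

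Of 12 genes that process and release IL-1β and IL-18, 3 rose and 1 fell, with a median of 0.28. That is 33.3% called, beside 9.98% of all genes, and 6 of the 12 lay below the median signal. Casp1, the protease that cuts both precursors, measured 3.63 and 3.08 against 5.42 and 5.47 and rose by 2.09 ± 0.20. Casp4, its relative in the non-canonical pathway, rose by 1.43 ± 0.18 and the NLRP3 partner Nek7 by 0.60 ± 0.13. Gsdmd, whose pores let IL-1β out, fell by 0.88 ± 0.12. Downstream of the receptors, 3 of 17 relay genes rose and 0 fell (median 0.12). These are 17.6% of a list whose genes all lay at or above the median signal, near the 18.1% called among all such genes. They were Irak3, a brake on IL-1 receptor signalling (0.95 ± 0.13), the TAK1 partner Tab1 (0.62 ± 0.13) and the nuclear NF-κB cofactor Nfkbiz (0.99 ± 0.22).

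In the IL-10 family 1 of 5 receptor chains rose, and all 5 ligands lay below the median signal. That was 1 call among 11 genes (9.09%), near the 9.98% of all genes. IL-10 restrains macrophages, and IL-22 protects epithelia and hepatocytes. Il10rb, the chain that the receptors of IL-10, IL-22 and type III interferons share, measured 4.92 and 4.62 on the ND arrays and 6.71 and 6.41 on the MCD arrays. It rose by 1.79 ± 0.17 (3.46-fold; limma adjusted p = 0.00276), with differences of 1.64 to 1.94 when each array was left out and the call kept in 4 of 4 fits. The arrays within a diet lay 0.30 apart on both diets, far less than the distance between the diets.

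Il22ra1 and Il10ra, whose products pair with Il10rb, had positive differences without passing the test. Il22ra1, the IL-22 receptor chain of epithelial cells and hepatocytes, measured 4.98 and 4.83 against 6.56 and 5.65, a difference of 1.20 ± 0.29 just outside the threshold (limma adjusted p = 0.0552). The first MCD array was the high one, since the difference was 1.65 without the second (adjusted p = 0.00922) and 0.75 without the first. Il10ra, the ligand-binding IL-10 chain of leukocytes, measured 3.12 and 3.19 against 3.63 and 3.60 (0.46 ± 0.12, limma adjusted p = 0.0668). Il20rb differed by 0.36 ± 0.18 (0.13 to 0.59 with single arrays left out) and Il20ra by -0.27 ± 0.12. Il10 stood at 1.70, 1.86, 1.80 and 1.98 (0.11 ± 0.13), and Il19, Il20, Il22 and Il24 differed by -0.20 to -0.036. The soluble IL-22 inhibitor Il22ra2 differed by -0.098 ± 0.14.

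**Figure D4:**
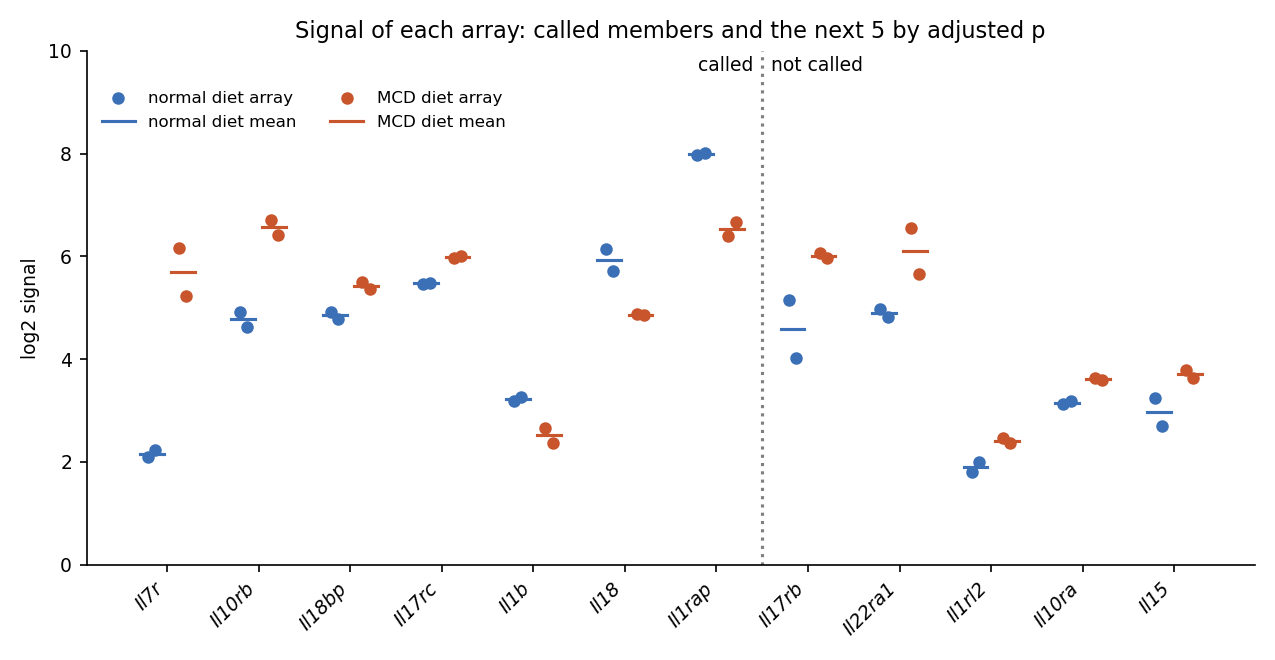
Log2 signal (y axis) on each normal diet (blue) and MCD diet (orange) array, with bars for the means, for the 7 called interleukin genes and, right of the dotted line, the 5 next genes by adjusted p. The genes were picked by adjusted p, and the diets are separated for all 12, as they are for 54.2% of all genes. The uncalled Il17rb and Il22ra1 and the called Il7r show a wide gap between arrays of a diet.

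In the IL-17 family 1 of 5 receptor chains rose, and none of the 6 ligands was called. The family thus had 1 call among 11 genes (9.09%), near the 9.98% of all genes. IL-17 cytokines come from T cells, innate lymphocytes and epithelia and act on stromal and epithelial cells through paired chains. Il17rc, the partner of Il17ra in the IL-17A and IL-17F receptor, measured 5.46 and 5.49 against 5.97 and 6.00. The arrays lay 0.034 apart within each diet, and Il17rc rose by 0.51 ± 0.12 (1.43-fold; limma adjusted p = 0.0462). The call was lost under quantile normalization (0.44, adjusted p = 0.0731), with an intensity trend (adjusted p = 0.0677) and with any 1 array left out (adjusted p = 0.144 to 0.162).

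Il17rb, the chain that binds IL-25, gave a larger but more variable difference. It measured 5.14 and 4.03 on the ND arrays and 6.06 and 5.98 on the MCD arrays, a gap of 1.11 between the ND arrays that was the widest within a diet of any interleukin gene. The difference of 1.43 ± 0.34 was just outside the threshold (limma adjusted p = 0.0535). It was called under median centring (adjusted p = 0.0443), with an intensity trend (0.0428 as adjusted p) and without the dimmest 25% of genes (adjusted p = 0.0428). It was not called under quantile normalization (adjusted p = 0.0523), with all rows tested (adjusted p = 0.0537) or without the first or second MCD array (adjusted p = 0.193 and 0.146). It was 1.99 without the first ND array (adjusted p = 0.00484) and 0.87 without the second (adjusted p = 0.0484).

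Other IL-17 genes did not pass. Il17ra, the chain common to most of these receptors, measured 5.44 and 5.38 against 5.37 and 5.18 (-0.14 ± 0.13), and Il17re 2.56 and 2.37 against 2.84 and 2.78 (0.35 ± 0.13), while Il17rd overlapped between the diets (0.12 ± 0.13). All 6 ligands had negative differences, from -0.42 for Il17d to -0.10 for Il17f, with 0 called. Il17d measured 2.81 and 2.72 against 2.37 and 2.32 (-0.42 ± 0.12, limma adjusted p = 0.0878). Of the 6, 5 lay below the median signal, where 35 of the 52 dim interleukin genes and 7442 of 11090 dim genes in all had negative differences. Among 10 genes of the IL-17 signal relay and its targets 3 rose and 0 fell (30% called, beside 9.98% of all genes). They were the lipocalin Lcn2 (3.91 ± 0.22), the chemokine Cxcl1 (1.496 ± 0.28) and Nfkbiz. Other cytokines induce these genes too. Nfkbiz is counted in the IL-1 relay list as well, and Lcn2 among the acute phase genes. The relay genes Traf3ip2, Traf2, Traf5 and Zc3h12a differed by -0.0017 to 0.10, and Cebpb by -0.94 ± 0.24, without a call.

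No gene of the IL-6 and IL-12 family was called. IL-6 is the main inducer of acute phase proteins in hepatocytes and signals through gp130, encoded by Il6st. Il6st stood at 8.39, 8.46, 8.56 and 8.53 on the 2 ND and then the 2 MCD arrays, a difference of 0.12 ± 0.12 with a 95% interval of -0.17 to 0.41. Il6ra, the IL-6 binding chain, measured 7.07 and 8.02 against 6.69 and 7.03. The MCD arrays lay below both ND arrays by little, the ND arrays differed by 0.95, and the difference of -0.69 ± 0.31 was not called (limma adjusted p = 0.250). Without the first ND array it was -1.17 (adjusted p = 0.0365) and without the second -0.21 (adjusted p = 0.674). Il6 stood at 1.64, 1.37, 1.45 and 1.47, near the floor of the scale (-0.046 ± 0.14, and 0.0054 under quantile normalization). Il11, a gp130 cytokine of fibroblasts, measured 2.29 and 2.58 against 2.06 and 2.01 (-0.40 ± 0.14, limma adjusted p = 0.158). The remaining genes, Il12a, Il12b, Il23a, Il27, Il31, Il12rb1, Il12rb2, Il23r, Il27ra and Il31ra, differed by -0.23 to 0.23.

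Receptors and ligands with other names that share a chain or a receptor with interleukins were counted as a list of 15 measured genes. Csf1 and Csf1r are in it only by way of IL-34, which binds the same receptor as CSF-1. Of the 15 genes 6 rose and 1 fell (median 0.30), 46.7% called beside 9.98% of all genes. Csf2rb, the β chain of the IL-3, IL-5 and GM-CSF receptors, rose by 0.78 ± 0.17. Csf2rb2, its copy that serves IL-3 alone, went from 3.45 and 3.08 to 6.10 and 5.49 (2.53 ± 0.24). They are near-identical genes, so each signal may include the other. Csf2ra rose by 1.67 ± 0.15 and the macrophage growth factor receptor Csf1r by 1.20 ± 0.17. In the gp130 group the oncostatin M receptor Osmr rose by 1.84 ± 0.16 and the ligand Clcf1 by 1.22 ± 0.13. Lifr, which pairs with gp130 for LIF, measured 9.398 and 9.499 against 7.63 and 7.995 and fell by 1.64 ± 0.16. Among the interleukin genes of the β chain group, in turn, Il3, Il5, Il3ra and Il5ra differed by -0.24 to 0.027 and none was called.

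Behind the receptors, 0 of 21 JAK, STAT and SOCS genes rose and 1 fell, Socs7 (by 0.54 ± 0.12), with a median of 0.015. That is 4.76% called, beside 9.98% of all genes. Of the 21 genes 18 lay at or above the median signal, where 18.1% of all genes were called. Socs3, a feedback inhibitor that IL-6 induces, stood at 3.30, 3.53, 3.62 and 3.26 (0.023 ± 0.17). Of 19 acute phase genes that IL-6 and IL-1 induce in hepatocytes 5 rose and 2 fell (median 0.21). That is 36.8% called, and all 19 lay at or above the median signal. Apcs, which encodes serum amyloid P, rose by 3.65 ± 0.15 and the orosomucoid Orm2 by 3.46 ± 0.16, whereas Saa2 fell by 1.86 ± 0.32. The Orm and Saa genes have close copies, so their signals may be mixed. The fibrinogen chains Fga, Fgb and Fgg differed by 0.017, 0.12 and 0.082.

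Other liver cell types were followed through further marker lists, on a scale that has no true zero. Of 12 stellate cell and fibroblast markers 7 rose and 0 fell, with summed signals of 964 and 793 (ND) against 2179 and 2195 (MCD). Of 8 measured cholangiocyte markers 6 rose and 1 fell, while their summed signal was 328 and 435 (ND) against 259 and 289 (MCD). The marker that fell, Onecut1, was the brightest of the list (8.08 and 8.59 against 6.45 and 6.65). It weighs most in that sum, which thus does not follow the 6 that rose. Of 12 sinusoidal endothelial markers 0 rose and 3 fell (25% called, beside 18.1% of all genes at or above the median signal). Among leukocytes, 1 of 12 neutrophil markers and 1 of 11 dendritic cell markers rose (8.33% and 9.09% called, beside 9.98% of all genes). Of the neutrophil markers 11 lay below the median signal, where 1.84% of all genes were called. Their differences were positive for 11 of the 12 and negative for 1, while 3648 of 11090 dim genes in all had positive differences. Of 11 B cell and plasma cell markers 2 rose and 1 fell. None of 12 markers of mast cells, basophils and eosinophils was called, and 10 of the 12 lay below the median signal. The part of these cells in the differences of interleukin receptors was not tested.

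The last ligands stand outside these families. Il34, which binds the same receptor as the macrophage growth factor CSF-1, measured 2.68 and 2.90 against 2.59 and 2.25 (-0.37 ± 0.16, limma adjusted p = 0.236, and -0.54 to -0.20 with single arrays left out). Il16, a chemoattractant for CD4+ cells, overlapped between the diets (-0.073 ± 0.18). The shared γ chain Il2rg was not analysed here, and 1 row that names Il4i1 together with other genes stayed out because it does not name exactly 1 gene.

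**Figure D5:**
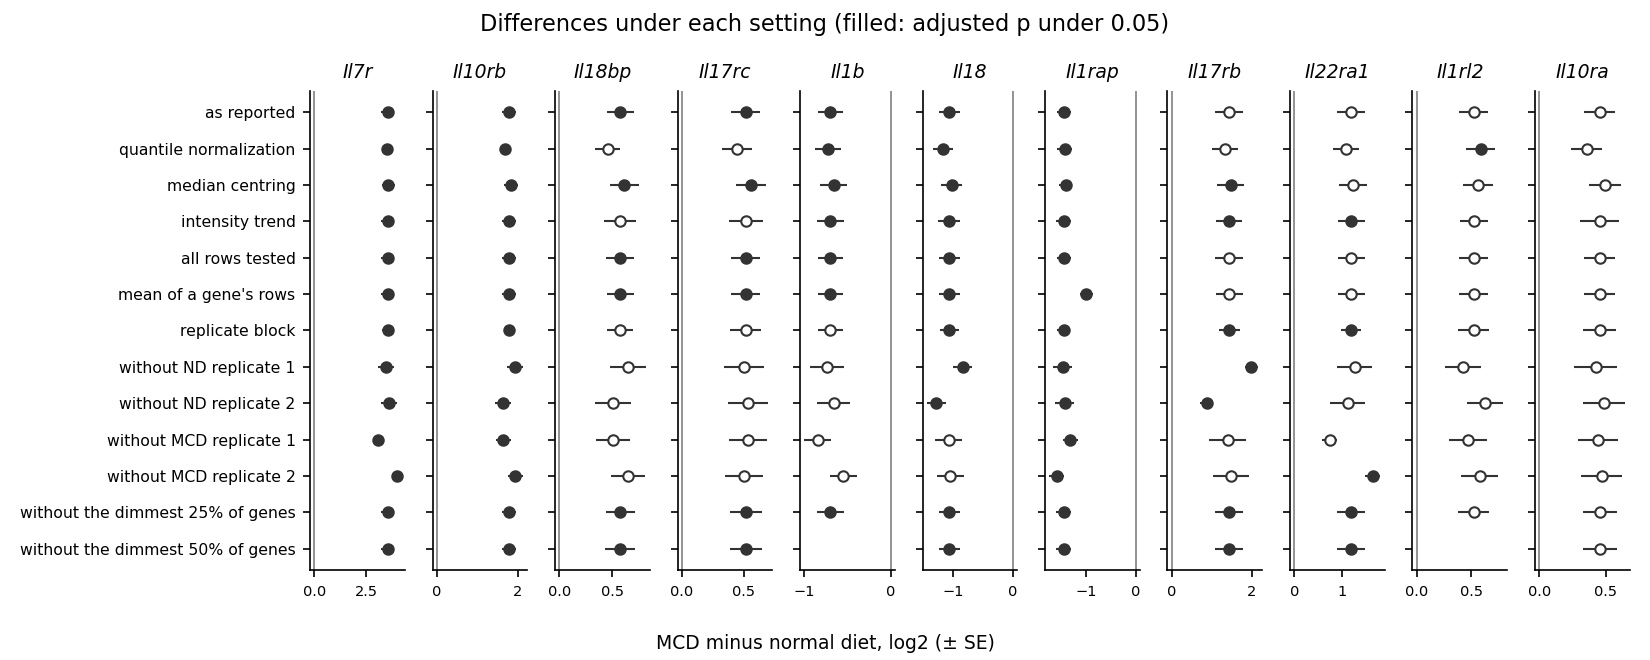
Log2 difference between the diets (x axis of each panel, bars are standard errors) for the 7 called interleukin genes and the 4 next by adjusted p, as reported and under each alternative setting (rows), with filled points for an adjusted p under 0.05. Il7r, Il10rb and Il1rap are filled in every row, whereas Il18bp, Il17rc and Il1b lose their fill in each row that leaves out an array.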

How the data were processed

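Liver RNA was read on Mouse Gene 2.1 ST arrays after amplification and biotin labelling, per the labels' protocols. The authors deposited 1 log2 signal per row and array, and the submitters' processing notes name Transcriptome Analysis Console. For its version, summarization, background correction and normalization, nothing is given in the sources used here. The base of the logarithm was inferred from the range of the values (maximum 12.1), and all fold changes depend on it. Genes are not centred, and no column of per-sample values was left unused (0).

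Of 34472 rows, 23521 name exactly 1 gene in the platform annotation, 1814 several and 9137 none. Per gene the row with the highest mean over the 4 arrays was used. All 78 interleukin genes were found in the RefSeq gene table (GRCm38.p6), with 0 symbols changed. Genes were compared with limma 3.58.1 in R 4.3.3, two-sided, on the deposited log2 signals, with Benjamini-Hochberg adjustment over all 22180 genes, without a block, pseudocount or filter. The moderated test had 6.06 degrees of freedom. The method was tested on simulated data. Alternatives were quantile normalization, median centring, an intensity trend, tests without the dimmest 25% or 50% of genes, all rows, the mean of a gene's rows, an unadjusted p under 0.05 with a 2-fold change, a replicate block and leaving out each array.

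The genes and lists were chosen with earlier results of these data known. The text names every called gene, up to 3 uncalled genes per family whose arrays do not overlap, and a fixed set of major interleukins and receptors. Other genes are given by ranges. Of the fixed set, Il1rl1 and Il2rg were not analysed here. Protein sequences were not used here.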

Additional observations from a re-analysis of the deposited data

How the results depend on the processing

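Il7r, Il10rb and Il1rap kept their direction and their call under all 12 alternatives that gave them a value. Under the alternatives that kept all arrays, 5.21% to 20.4% of all genes tested were called, the most without the dimmest 50% of genes. The number of called interleukin genes, 7 as reported (4 higher and 3 lower), was 6 to 9 under these alternatives. With 1 array left out it was 3 to 7 (2 to 4 higher and 1 to 3 lower), lowest without the first MCD array. The lone array of a diet was then assumed to vary like the others, and calls over all genes became fewer as well. The arrays of the diets share replicate numbers, but the labels do not tie them, and with 2 pairs the deviations of same-numbered arrays correlated at 0.0537 across genes. With the replicate number as a block, 6 interleukin genes were called, 4 of them among the 7. Il1b, Il17rc and Il18bp lost their call (block adjusted p = 0.0571, 0.0759 and 0.0582), and Il17rb and Il22ra1 gained one (block adjusted p = 0.0394 and 0.0347). Among uncalled genes the sign turned for Il4ra and Il6 under quantile normalization (-0.044 and 0.0054). With single arrays left out it turned for Il4ra (-0.050 to 0.082), Il6 (-0.18 to 0.088), Il15ra (-0.067 to 0.36), Il1a (-0.064 to 0.48) and Il1r2 (-0.00075 to 0.44). The number of arrays and dim signals, below the median for 52 of the 78 genes, limit what could be called.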

Other observations

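Several interleukin genes neighbour each other in the genome, and these groups were looked at after their values were seen, with neighbours defined as at most 2 other protein-coding genes apart in RefSeq. The IL-1 receptor cluster on chromosome 1 holds Il1r2, Il1r1, Il1rl2, Il18r1 and Il18rap. All 5 had positive differences, from 0.078 to 1.08 (median 0.52), the MCD arrays lay above the ND arrays for 3 of them, and 0 were called. Over all genes 9809 of 22180 differences were positive, and the MCD arrays lay above for 25%. The cluster of 6 genes around Il1f8, Il1f9, Il1f6, Il1f5, Il1f10 and Il1rn on chromosome 2 had 2 positive and 4 negative differences (median -0.045). The 4 genes Il24, Il20, Il19 and Il10 on chromosome 1 gave 1 positive and 3 negative (median -0.11). Il17re and Il17rc, neighbours on chromosome 6, differed by 0.35 and 0.51, with the MCD arrays above the ND arrays for both. Il1a and Il1b lie side by side on chromosome 2 and differed by 0.21 and -0.70.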
